A study of Mus musculus with 18 samples.

Results

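Interleukins and the tumour necrosis factor (TNF) family are secreted or membrane-bound signals of the immune system. The genes of both families and of their receptors were followed in the livers of mice that lack lysosomal acid lipase (LAL), with and without gene therapy. Members were the genes whose symbol begins with Il, Tnfsf or Tnfrsf followed by a digit, or is Tnf, and that held more than 100 reads summed over the 18 mice. Of 115 such symbols in a table of 35441 genes, 64 passed, among 14535 genes tested in all. They comprise 16 ligands, 41 receptors or receptor chains, 6 antagonists or decoys and Il4i1, an amino acid oxidase that shares only the symbol.

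PolyA RNA of whole liver was sequenced from 3 male mice in each of 6 groups. These were untreated wild-type (WT) mice, untreated Lipa-/- mice and Lipa-/- mice given rAAV8.hAAT.LIPA, each at 12 and 34 weeks post-injection, which the labels call 3 and 8 months. Both kinds of Lipa-/- mice lack an exon of Lipa, the gene of LAL. It was deleted with a Cre driven by the CMV promoter, and the line was bred onto C57/BL6N. Without LAL, the untreated ones cannot break down cholesteryl esters and triglycerides in lysosomes. The vector is an adeno-associated virus that carries human LIPA under hAAT, a promoter active in hepatocytes. It adds human LIPA and leaves the deletion of the mouse gene in every cell. The paper reports that hepatocytes secrete LAL, which also acts in other tissues. By the study's account most Lipa-/- mice had to be killed before the later time point, and the age at death of each Lipa-/- mouse labelled 8 months is not given in the sources used here. The sample names carry different prefixes at the 2 time points, whose meaning the labels do not give, so time and prefix cannot be told apart, and Lipa-/- mouse 5 at 12 weeks had a prefix of its own.

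As background, IL-1, IL-18, IL-33 and IL-36 act through paired receptor chains that signal to NF-kappaB, and several of these receptors need the shared chain encoded by Il1rap. Interleukins of the common gamma chain, IL-6 and IL-10 families signal through JAK kinases and STAT factors, and in hepatocytes the IL-6 receptor drives acute phase proteins through STAT3. TNF family ligands are mostly trimers on the cell surface, and their receptors either recruit TRAF adaptors, which leads to NF-kappaB, or carry a death domain. In liver, macrophages are the main known source of TNF and IL-1, while decoy receptors and the IL-1 receptor antagonist limit these signals.

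The count of reads assigned to genes was 17527824 to 25833059 per mouse, and 3 reads, taken as the floor of detection, corresponded to 0.0946 to 0.291 CPM (counts scaled to the size of the library). Levels are given as CPM after scaling by the trimmed mean of M values (TMM), whose factors ran from 0.587 to 1.69 and were lowest in treated mice at 12 weeks. Murine Lipa was at 202 to 323 CPM in WT mice and at 16.7 to 37.0 CPM in Lipa-/- and treated mice. Human LIPA was at 0 in all 6 Lipa-/- mice, at 523 to 2745 CPM in treated mice and at 0.906 CPM at most in WT mice, in mouse 2 at 34 weeks. These values matched the labels, and the highest correlation between any 2 mice was 0.983. A gene was called when edgeR's quasi-likelihood test gave an adjusted p under 0.05 and the absolute log2 fold change was over 1, and log2 fold changes are given with their standard error (SE). Every mouse is a separate animal.

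In Lipa-/- livers at 12 weeks, 40 of the 64 members were called higher than in WT livers and 1 was called lower. Of all genes tested, 20.2% were called higher and 9.07% lower. The median log2 fold change was 1.81 over the members and 0.02 over all genes. At 34 weeks, 37 members were called higher and 1 lower, beside 20.5% and 15.7% of all genes, with medians of 1.4 and -0.03. The members called higher at both time points numbered 33, and Il1rap, the shared receptor chain of IL-1, IL-33 and IL-36, was called lower at both. Ligands were called higher in 13 of 16 cases at 12 weeks and in 11 at 34 weeks. For receptors the counts were 22 and 23 of 41, with 1 lower each time, and for antagonists and decoys 4 and 3 of 6. A gene expressed only in Lipa-/- livers can pass the read minimum through them alone, so the count was repeated with a minimum set on the 6 WT mice. The 52 members that passed there held 30 higher and 1 lower at 12 weeks and 28 higher and 1 lower at 34 weeks, beside 16.7% and 16.8% of all such genes called higher. The 12 others, among them Tnf, Il7, Il21r, Il1r2 and Tnfrsf9, were measured but too rare in WT livers to pass. The plot of fold changes shows all members in the comparisons with WT mice.

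**Figure D1:**
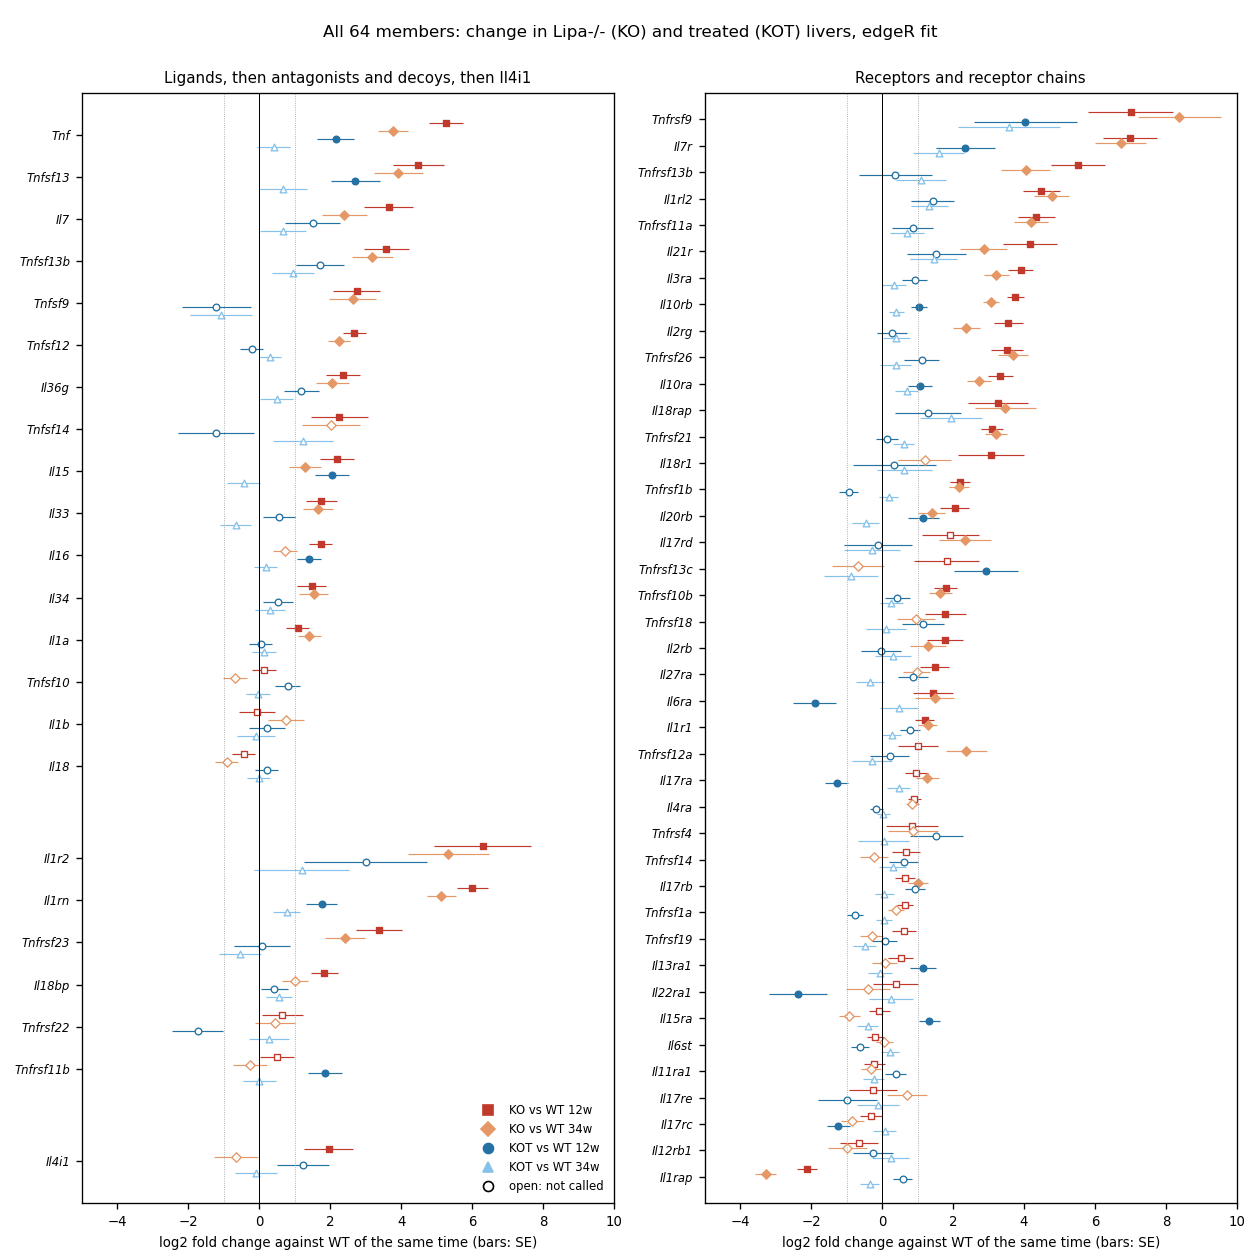
Log2 fold change (x axis) with its SE for each of the 64 members (y axis) in Lipa-/- (KO) and treated (KOT) livers against WT livers at 12 and 34 weeks, with filled points for called members. In Lipa-/- livers most points lie to the right of 0 at both time points and Il1rap lies to the left, while in treated livers at 34 weeks no point is filled.

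By family, the common gamma chain group had 6 of 8 members called higher at both time points, the IL-1 family 10 of 13 at 12 weeks and 8 at 34 weeks, and the TNF family 15 and 14 of 24. The class II group of IL-10 and IL-22 type receptors had 3 of 4 called higher at both times. The IL-17 receptors stood at 0 of 5 at 12 weeks and 3 of 5 at 34 weeks. The remaining class I chains, which include the IL-6 and IL-11 receptors, had 3 and 2 of 7, and the 3 members of no such family 3 and 1. Of all genes tested, 20.2% were called higher at 12 weeks and 20.5% at 34 weeks. The 2 of 7 class I chains at 34 weeks are near that share, and the 0 of 5 IL-17 receptors at 12 weeks lie below it. The family counts include members that passed the read minimum only through livers other than WT. Among the members that pass in WT mice alone, a count added after the data were seen, the common gamma chain group had 4 of 6 called higher at both times, the IL-1 family 7 and 5 of 10, with 1 lower, the TNF family 10 of 18 at both times and the IL-17 receptors 0 and 3 of 4, and the class I, class II and remaining members were the same in number. By role the counts were 9 and 8 of 12 ligands, 17 and 18 of 34 receptors, with 1 lower, and 3 and 2 of 5 antagonists and decoys. Of all genes that pass in WT mice alone, 16.7% and 16.8% were called higher. No member's difference from WT mice was called as changing between the time points. In that test edgeR called 0 of 64, 7 had an unadjusted p under 0.05, DESeq2 called 0, and 0.0619% of all genes were called.

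The members with the largest log2 fold change in Lipa-/- against WT livers at 12 weeks were, in order, Tnfrsf9, Il7r, Il1r2, Il1rn, Tnfrsf13b, Tnf, Il1rl2, Tnfsf13, Tnfrsf11a and Il21r. To show what lies before the genes that moved most, the bases upstream of their RefSeq start sites were searched for the letters of 3 motifs on both strands, NF-kappaB (GGANTTNCC), AP-1 (TGANTCA) and STAT (TTCNNNGAA), within 250 bases. At least 1 of them stood before 7 of the 10 genes, and none before Tnf, Tnfrsf13b and Tnfrsf11a. A stretch around the match is printed below for each of the 7, with the matching letters in capitals, and for Il1rap, the gene that fell, which held none. All lines read 5′ to 3′ along the gene's strand. The sequences are RefSeq's, from a table of GRCm38.p6, and each position is that of the single exact match in GRCm39.
Tnfrsf9, NF-kappaB, chr4:151012404-151012433, plus strand: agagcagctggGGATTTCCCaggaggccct
Tnfrsf9, AP-1, chr4:151012426-151012455, plus strand: gaggccctgctcagtTGAGTCAcaggtcct
Il7r, STAT, chr15:9530007-9530126, minus strand: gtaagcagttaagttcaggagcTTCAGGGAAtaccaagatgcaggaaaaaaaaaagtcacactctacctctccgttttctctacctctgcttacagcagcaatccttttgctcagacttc
Il1r2, STAT, chr1:40125131-40125160, plus strand: gcgggtgctttTTCAAGGAActtccgacta
Il1rn, AP-1, chr2:24226674-24226793, plus strand: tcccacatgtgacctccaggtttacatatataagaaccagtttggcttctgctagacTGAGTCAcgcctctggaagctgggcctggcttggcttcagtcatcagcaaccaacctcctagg
Il1rl2, NF-kappaB, chr1:40363577-40363696, plus strand: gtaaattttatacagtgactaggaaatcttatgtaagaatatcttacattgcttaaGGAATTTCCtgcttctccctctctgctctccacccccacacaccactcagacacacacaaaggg
Tnfsf13, AP-1, chr11:69576496-69576525, minus strand: ctcattcatgccTGAGTCAgagtctaccac
Il21r, NF-kappaB read on the other strand, chr7:125202351-125202470, plus strand: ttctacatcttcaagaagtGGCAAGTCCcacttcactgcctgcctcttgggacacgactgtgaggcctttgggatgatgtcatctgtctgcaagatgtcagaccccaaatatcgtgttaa
Il1rap, no motif, chr16:26400230-26400349, plus strand: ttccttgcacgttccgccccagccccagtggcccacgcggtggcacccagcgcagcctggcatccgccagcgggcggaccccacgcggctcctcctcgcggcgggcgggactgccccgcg
The Tnfrsf9 matches began 41 and 15 bases before the start site, and a further STAT match stood 136 bases before it. Of the 64 members, 48 had windows in the table, 61 windows in all. The NF-kappaB letters were in 9.84% of the members' windows and in 3.95% of all windows, the AP-1 letters in 18% and 7.81%, and the STAT letters in 13.1% and 8.3%. Of 2 further motifs, the core of the interferon-stimulated response element (GAAANNGAA) was in 11.5% and 8.56%, and an E-box-like site (CANGTG) in 57.4% and 44.9%. Over the windows of the genes tested, which passed the same read minimum as the members, the shares were 4.07%, 5.66%, 7.11%, 7.48% and 40.5% in this order. These shares were counted over whole windows, which run past the start site, and not over the 250 upstream bases of the search above. They describe letters in these windows and were not tested. The share of all genes that hold at least 1 of the 3 motifs upstream was not computed.

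Among the ligands, Tnf had the largest log2 fold change at 12 weeks and Tnfsf13 at 34 weeks. The WT mice held 0.161, 0.143 and 0.157 CPM at 12 weeks and 0.177, 0.512 and 0.272 CPM at 34 weeks, and the Lipa-/- mice held 6.46, 6.72 and 5.09 CPM and 5.11, 4.83 and 3.75 CPM. All 6 Lipa-/- mice stood above all 6 WT mice. The log2 fold changes of Tnf were 5.26 ± 0.49 at 12 weeks (edgeR, adjusted p = 5.1e-07) and 3.77 ± 0.43 at 34 weeks (adjusted p = 3.3e-06). Tnf encodes the founding member of its family, made as a membrane protein and released by the sheddase ADAM17.

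Of the other TNF family ligands, Tnfsf12, Tnfsf13, Tnfsf13b and Tnfsf9 rose at both times. Tnfsf12, which encodes TWEAK, a ligand that acts on epithelial and progenitor cells, was at 6.91 to 8.47 CPM in WT and 44.9 to 55.9 CPM in Lipa-/- mice at 12 weeks, and at 6.66 to 10.6 and 40.4 to 48.4 CPM at 34 weeks. Its log2 fold changes were 2.68 ± 0.33 and 2.25 ± 0.32, with adjusted p = 7.7e-06 and 2.6e-05 in edgeR, and the groups did not overlap. Tnfsf13, which encodes the plasma cell survival factor APRIL, was at 1.55, 0.813 and 0.419 CPM in WT and 12.9, 19.95 and 29.4 CPM in Lipa-/- mice at 12 weeks, and the log2 fold change was 4.48 ± 0.71 (edgeR, adjusted p = 0.00011). At 34 weeks it was at 2.71, 0.315 and 0.35 CPM against 12.5, 21.1 and 14.7 CPM, a log2 fold change of 3.92 ± 0.69 (adjusted p = 2e-04 in edgeR). Tnfsf12 and Tnfsf13 lie next to each other on the minus strand of chromosome 11, and both share exons with the annotated read-through gene Tnfsfm13, so the division of reads between them is uncertain. Tnfsf13b, the B cell factor BAFF, was at 0.107 to 0.67 CPM in the 6 WT mice and 1.06 to 3.66 CPM in the 6 Lipa-/- mice, with log2 fold changes of 3.58 ± 0.63 and 3.18 ± 0.58. Tnfsf9, the ligand of 4-1BB, was at 0.0523 to 0.191 CPM and 0.425 to 0.887 CPM, with log2 fold changes of 2.74 ± 0.66 and 2.63 ± 0.66, called at both times. Tnfsf14, which encodes LIGHT, was called at 12 weeks (2.26 ± 0.81, edgeR adjusted p = 0.034) and not at 34 weeks (2.02 ± 0.82, adjusted p = 0.052). Its call at 12 weeks was lost on leaving out any of WT mice 1, 2 and 3 or Lipa-/- mice 5 and 9, with adjusted p from 0.0543 to 0.138. Tnfsf10, which encodes the death ligand TRAIL, had log2 fold changes of 0.14 ± 0.35 and -0.69 ± 0.35 and was called at neither time, although at 34 weeks its Lipa-/- mice (3.09 to 4.52 CPM) lay below the WT mice (5.54 to 7.05 CPM).

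Within the IL-1 family, the ligands differed from each other. Il1a, which encodes the membrane-active IL-1alpha, was at 2.79, 3.73 and 3.14 CPM in WT and 7.45, 8.73 and 4.36 CPM in Lipa-/- mice at 12 weeks, and at 2.3, 1.89 and 2.8 against 7.5, 7.22 and 3.89 CPM at 34 weeks. Its log2 fold changes were 1.09 ± 0.33 and 1.41 ± 0.33 (edgeR, adjusted p = 0.014 and 0.0021). The call at 12 weeks was lost without WT mouse 1 or Lipa-/- mouse 8, with log2 fold changes of 0.87 to 0.99. Il1b, which encodes the inflammasome product IL-1beta, was at 2.84, 8.47 and 1.47 CPM in WT and 3.65, 4.58 and 4.00 CPM in Lipa-/- mice at 12 weeks. WT mouse 2 was the highest of the 6 and the groups overlapped, so the log2 fold change of -0.07 ± 0.50 was not called, and that of 0.75 ± 0.51 at 34 weeks was not called either. Il18, another inflammasome substrate, stood at -0.44 ± 0.32 and -0.91 ± 0.32 and was not called, although at 34 weeks it was called lower without WT mouse 2, WT mouse 3 or Lipa-/- mouse 5 (-1.13 to -1.01). At 34 weeks Il18 was at 5.88 to 12.9 CPM in WT and 3.89 to 5.83 CPM in Lipa-/- mice, which do not overlap. Il33, an alarmin of stromal and epithelial cells, was at 0.861 to 1.73 CPM in WT and 1.95 to 6.02 CPM in Lipa-/- mice at 12 weeks, and at 1.98 to 2.77 against 5.72 to 9.43 CPM at 34 weeks. Its log2 fold changes of 1.749 ± 0.44 and 1.66 ± 0.42 were both called. Il36g, an IL-36 ligand best known from epithelia, was called at both times at 2.37 ± 0.48 and 2.05 ± 0.46.

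The other ligands were of several families. Il7, the T cell survival factor, was at 0.0478 to 0.262 CPM in WT and 1.06 to 2.18 CPM in Lipa-/- mice at 12 weeks and had log2 fold changes of 3.64 ± 0.70 and 2.40 ± 0.63, called at both times. Il15, which sustains NK cells and memory T cells, was called at 2.19 ± 0.47 and 1.29 ± 0.44. The later call of Il15 was lost on leaving out WT mouse 2, WT mouse 3, Lipa-/- mouse 4 or Lipa-/- mouse 5, with adjusted p from 0.0555 to 0.134. Il34, a ligand of the macrophage receptor CSF1R, was at 0.803 to 1.41 CPM in WT and 2.52 to 3.6 CPM in Lipa-/- mice at 12 weeks and was called at both times at 1.48 ± 0.41 and 1.53 ± 0.41. Il16, a chemoattractant for CD4+ cells, was called at 12 weeks alone (1.73 ± 0.34, and 0.73 ± 0.33 at 34 weeks). The plot of ligands shows every mouse.

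**Figure D2:**
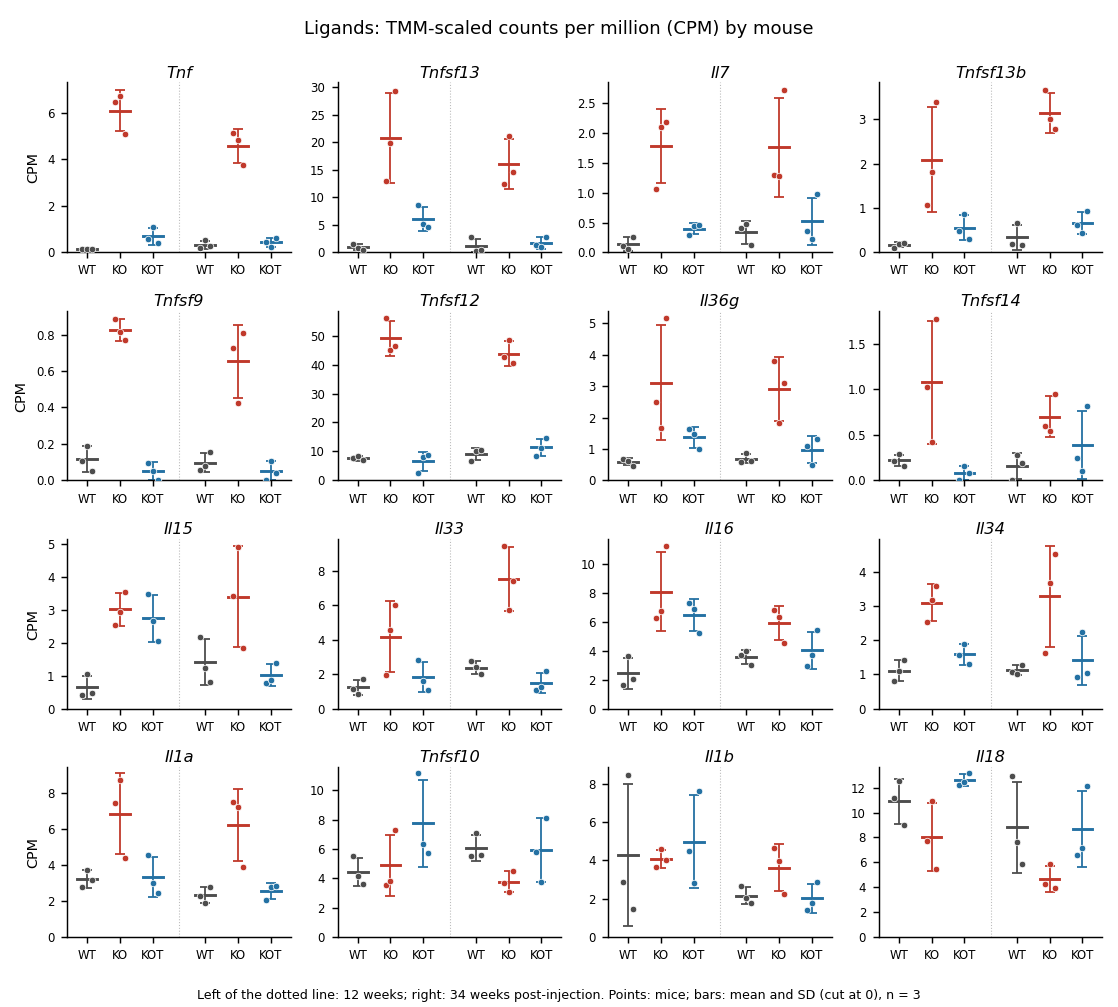
TMM-scaled CPM (y axis, from 0) of the 16 ligands in each mouse by group, with 12 weeks left and 34 weeks right of the dotted line, and bars for the mean and SD of 3 mice. Tnf, Tnfsf12, Tnfsf13, Tnfsf13b and Il7 of all 6 Lipa-/- (KO) mice lie above all WT mice, whereas Il1b overlaps at both times and Il18 and Tnfsf10 overlap at 12 weeks and lie below WT mice at 34 weeks, where neither was called.

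The antagonists of IL-1 were called higher at both times and that of IL-18 at 12 weeks. Il1rn, which encodes the secreted IL-1 receptor antagonist, was at 0.589, 0.574 and 0.837 CPM in WT and 37.6, 44.3 and 47.2 CPM in Lipa-/- mice at 12 weeks. At 34 weeks it was at 1.36, 2.32 and 1.71 CPM against 53.3, 77.7 and 59.9 CPM. The log2 fold changes were 6.00 ± 0.44 (edgeR, adjusted p = 6e-08) and 5.13 ± 0.41 (adjusted p = 1.3e-07). Levels of different genes can be compared within a group by TPM, a measure of transcript abundance that accounts for length. In Lipa-/- livers Il1rn was at 29.3 ± 5.5 TPM at 12 weeks and 56.9 ± 7.7 TPM at 34 weeks (SD, n = 3), against 4.59 ± 1.3 and 5.84 ± 2.5 TPM of Il1a and 4.35 ± 0.55 and 5.70 ± 3.0 TPM of Il1b. In WT livers at 12 weeks the order was the reverse, with 0.844 ± 0.95 TPM of Il1rn, 1.57 ± 0.21 of Il1a and 3.22 ± 2.3 of Il1b, where the spreads overlap. Il1r2, the IL-1 decoy receptor, held 1 read in the 3 WT mice together at 12 weeks and 135 reads in the Lipa-/- mice (0.568, 0.776 and 4.00 CPM). Their ratio was 100.7, with a counting interval of 17.8 to 4005 (exact, 95%), and intervals of this kind cover counting error only. At 34 weeks Il1r2 was at 0 to 0.0788 CPM in WT and 1.82 to 3.75 CPM in Lipa-/- mice and was called (edgeR, adjusted p = 0.0011). Il18bp, the soluble IL-18 binding protein, was at 5.08 to 6.55 CPM in WT and 11.1 to 28.3 CPM in Lipa-/- mice at 12 weeks, and its log2 fold change was 1.84 ± 0.38 (adjusted p = 0.001 in edgeR). At 34 weeks it was 1.00 ± 0.37 with adjusted p = 0.035 and lay just under the threshold of fold change.

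The decoys of the TNF family behaved in different ways. Tnfrsf11b, which encodes osteoprotegerin, the soluble decoy of RANKL and TRAIL, was at 2.46 to 4.54 CPM in WT and 2.16 to 7.31 CPM in Lipa-/- mice at 12 weeks, and its log2 fold changes of 0.50 ± 0.47 and -0.26 ± 0.47 were not called. Tnfrsf23, a murine decoy receptor of TRAIL, was at 0.209 to 0.239 CPM in WT and 1.79 to 2.77 CPM in Lipa-/- mice at 12 weeks, with log2 fold changes of 3.38 ± 0.66 and 2.42 ± 0.57, both called. Its neighbours on chromosome 7 differed from each other, with Tnfrsf26 called at 3.52 ± 0.45 and 3.70 ± 0.42 and Tnfrsf22 not called at 0.66 ± 0.58 and 0.44 ± 0.56. These 3 genes are close paralogs, so their shares of reads are uncertain.

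Of the receptors, Il7r and Tnfrsf9 had the largest log2 fold changes. Il7r, the IL-7 receptor chain of lymphocytes, was at 0.268, 0.143 and 0.209 CPM in WT and 26.0, 26.6 and 28.0 CPM in Lipa-/- mice at 12 weeks, and at 0, 0.591 and 0.35 against 49.0, 32.6 and 28.0 CPM at 34 weeks. The log2 fold changes were 6.995 ± 0.76 and 6.73 ± 0.72 (edgeR, adjusted p = 2.5e-06 and 1.6e-06), and no Lipa-/- mouse came near a WT mouse. Tnfrsf9, which encodes the T cell costimulator 4-1BB, held 1 read in the WT mice of each time point. Lipa-/- mice held 1.277, 2.1 and 5.29 CPM at 12 weeks and 8.51, 4.13 and 7.46 CPM at 34 weeks. The ratios of Lipa-/- to WT were 165 (counting interval 29.3 to 6538) and 465 (83.2 to 18407). Of the other common gamma chain receptors, Il2rg, Il21r and Il2rb rose at both times. Il2rg, the common gamma chain itself, was at 1.02 to 1.34 CPM in WT and 11.6 to 16.7 CPM in Lipa-/- mice at 12 weeks, with log2 fold changes of 3.55 ± 0.41 and 2.38 ± 0.38. Il21r rose by 4.17 ± 0.75 and 2.87 ± 0.66 on the log2 scale, and Il2rb, shared by IL-2 and IL-15, by 1.78 ± 0.52 and 1.30 ± 0.50. Il4ra, the IL-4 receptor chain, was at 24.5 to 28.5 CPM in WT and 40.1 to 53.7 CPM in Lipa-/- mice at 12 weeks. Its log2 fold changes of 0.91 ± 0.19 and 0.86 ± 0.19 had adjusted p = 0.0011 and 0.0013 in edgeR but were under the threshold of fold change. Il15ra, which presents IL-15, was at -0.07 ± 0.30 and -0.92 ± 0.31 and was not called.

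The receptors for TNF itself differed from each other. Tnfrsf1b, which encodes the leukocyte receptor TNFR2, was at 10.7, 12.9 and 18.5 CPM in WT and 65.3, 75.8 and 51.8 CPM in Lipa-/- mice at 12 weeks, and at 10.7, 17.8 and 16.7 against 77.2, 73.9 and 52.2 CPM at 34 weeks. The log2 fold changes were 2.20 ± 0.28 and 2.17 ± 0.27 (edgeR, adjusted p = 1.1e-05 and 8.5e-06). Tnfrsf1a, which encodes the widely expressed death domain receptor TNFR1, was at 63.2, 75.9 and 64.05 CPM in WT and 101.2, 120.4 and 94.9 CPM in Lipa-/- mice at 12 weeks. The groups did not overlap, but the log2 fold change was 0.64 ± 0.22 and, at 34 weeks, 0.39 ± 0.22, and neither was called. Scaling by total counts moves the median of all genes by 0.47 and 0.63 in these comparisons. Whether Tnfrsf1a passes the threshold of fold change can therefore depend on the scaling. Tnfrsf12a, which encodes the TWEAK receptor Fn14, was at 8.14, 48.6 and 6.96 CPM in WT and 26.2, 45.0 and 57.7 CPM in Lipa-/- mice at 12 weeks. WT mouse 2 stood apart from its group, and the log2 fold change of 1.01 ± 0.55 was not called (edgeR, adjusted p = 0.16), whereas without that mouse it was 2.51 with adjusted p = 0.000211. At 34 weeks it was at 7.33 to 14.2 CPM in WT and 38.5 to 65.9 CPM in Lipa-/- mice, a called log2 fold change of 2.38 ± 0.58.

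The remaining TNF receptors that rose at both times are best known from myeloid cells, B cells or cell death. Tnfrsf11a, which encodes the osteoclast receptor RANK, was at 0.105 to 0.748 CPM in the 6 WT mice and 4.89 to 11.0 CPM in the 6 Lipa-/- mice, with log2 fold changes of 4.35 ± 0.51 and 4.20 ± 0.48. Tnfrsf13b, which encodes TACI, the B cell receptor of BAFF and APRIL, was at 0.0957 to 0.473 CPM in WT and 3.09 to 7.15 CPM in Lipa-/- mice, with log2 fold changes of 5.52 ± 0.77 and 4.05 ± 0.68. Tnfrsf13c, the BAFF receptor proper, was not called at either time (1.83 ± 0.91 and -0.68 ± 0.73). Tnfrsf21, which encodes death receptor 6, was at 2.46 to 3.66 CPM in WT and 20.5 to 31.6 CPM in Lipa-/- mice at 12 weeks, with log2 fold changes of 3.09 ± 0.31 and 3.22 ± 0.31. Tnfrsf10b, the death receptor of TRAIL, rose by 1.79 ± 0.33 and 1.65 ± 0.32 on the log2 scale. Tnfrsf14, the receptor of LIGHT, and Tnfrsf19 were called at neither time, with absolute log2 fold changes of 0.22 to 0.68. Of the T cell costimulators, Tnfrsf18 (GITR) was called at 12 weeks alone (1.79 ± 0.57, and 0.95 ± 0.54 at 34 weeks) and Tnfrsf4 (OX40) at neither time (0.84 ± 0.73 and 0.87 ± 0.70).

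In the IL-1 receptor group, Il1rap went the other way from the rest. WT mice held 209, 247 and 198 CPM at 12 weeks and 306, 150 and 158 CPM at 34 weeks. Lipa-/- mice held 47.2, 66.7 and 38.0 CPM and 17.9, 22.5 and 22.9 CPM, all below every WT mouse. The log2 fold changes were -2.11 ± 0.28 (edgeR, adjusted p = 1.9e-05) and -3.28 ± 0.29 (adjusted p = 3.3e-07). Il1rap was also the only member called between the time points within Lipa-/- mice, at -1.26 ± 0.27 with adjusted p = 0.0496, where 0.495% of all genes were called in either direction. The members with the highest mean TPM over all mice were Il1rap, Il11ra1, Tnfrsf1a, Tnfrsf12a and Tnfsf12, and their order differed between groups. In WT livers at 34 weeks Il1rap was at 95.8 ± 14.2 TPM (SD, n = 3), above Il11ra1 at 40.5 ± 9.2, Tnfrsf1a at 39.5 ± 12.1, Tnfrsf12a at 13.6 ± 1.7 and Tnfsf12 at 8.47 ± 3.4 TPM, where Il11ra1 and Tnfrsf1a do not differ beyond their spread. In Lipa-/- livers at 34 weeks Il1rap was at 12.5 ± 0.26 TPM, below Tnfrsf12a at 115 ± 15.5, Il11ra1 at 82.8 ± 24.0, Tnfrsf1a at 80.5 ± 8.1 and Tnfsf12 at 61.8 ± 10.2 TPM. The genes of 5 other receptor chains of this family lie in a run of 6 genes on chromosome 1 of GRCm39, from 40113239 to 40590865, in the order Il1r2, Il1r1, Il1rl2, Il1rl1, Il18r1 and Il18rap, of which Il1rl1 did not pass the read minimum. Il1r1, the signalling IL-1 receptor, was at 19.05 to 19.85 CPM in WT and 29.4 to 55.3 CPM in Lipa-/- mice at 12 weeks, with log2 fold changes of 1.202 ± 0.27 and 1.283 ± 0.27, and the later one was 0.99 without Lipa-/- mouse 5. Il1rl2, the IL-36 receptor, was at 0.0523 to 0.197 CPM in the 6 WT mice and 2.09 to 5.45 CPM in the 6 Lipa-/- mice, with log2 fold changes of 4.48 ± 0.52 and 4.78 ± 0.50. Of the IL-18 receptor chains, Il18rap was called at both times (3.26 ± 0.86 and 3.47 ± 0.86) and Il18r1 at 12 weeks alone (3.07 ± 0.94, and 1.201 ± 0.75 at 34 weeks). The call of Il18r1 was lost without WT mouse 1 or WT mouse 2, with adjusted p of 0.0591 and 0.0603.

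The receptors of IL-10, IL-3, IL-6 and IL-17 differed in size of change. Il10rb, the chain shared by IL-10, IL-22 and type III interferon, was at 4.87, 5.6 and 4.97 CPM in WT and 74.3, 72.0 and 62.4 CPM in Lipa-/- mice at 12 weeks, with log2 fold changes of 3.75 ± 0.24 (edgeR, adjusted p = 2e-08) and 3.07 ± 0.23 (adjusted p = 9.6e-08). Exons of Il10rb overlap those of Gm21970 on the same strand, so its reads may be split. Il10ra, the ligand-binding chain of haematopoietic cells, was at 1.55 to 2.49 and 19.7 to 20.7 CPM, with log2 fold changes of 3.33 ± 0.35 and 2.72 ± 0.34, and Il3ra rose by 3.90 ± 0.36 and 3.22 ± 0.35. Il6ra, the IL-6 receptor, was at 5.52, 5.55 and 18.1 CPM in WT and 44.2, 24.0 and 10.8 CPM in Lipa-/- mice at 12 weeks, and these groups overlapped. Its log2 fold changes of 1.44 ± 0.55 and 1.48 ± 0.55 were called with adjusted p = 0.048 and 0.035 in edgeR, and each call was lost without any of 4 mice. These were WT mice 1 and 2 and Lipa-/- mice 5 and 8 at 12 weeks (adjusted p from 0.0721 to 0.265) and WT mice 1 and 3 and Lipa-/- mice 4 and 5 at 34 weeks (0.068 to 0.129). Il6st, the gp130 chain through which IL-6 type cytokines signal, was at 67.9 to 106 CPM in WT and 64.8 to 81.2 CPM in Lipa-/- mice at 12 weeks and was not called (-0.19 ± 0.25 and 0.07 ± 0.25). Il11ra1 was not called either (-0.22 ± 0.29 and -0.31 ± 0.29). Il17ra, the shared IL-17 receptor chain, was at 9.91, 12.6 and 13.7 CPM in WT and 26.7, 24.4 and 19.4 CPM in Lipa-/- mice at 12 weeks (0.96 ± 0.32, not called) and rose by 1.27 ± 0.32 at 34 weeks. At 34 weeks Il17rb and Il17rd were called as well (1.02 ± 0.28 and 2.33 ± 0.73), and Il17rc and Il17re were not (-0.83 ± 0.32 and 0.71 ± 0.56). Il27ra was called at 12 weeks (1.49 ± 0.41) and stood at 0.98 ± 0.38 at 34 weeks, Il20rb was called at both times (2.04 ± 0.41 and 1.396 ± 0.37), and Il22ra1, Il13ra1 and Il12rb1 were called at neither, with log2 fold changes from -0.98 to 0.53.

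**Figure D3:**
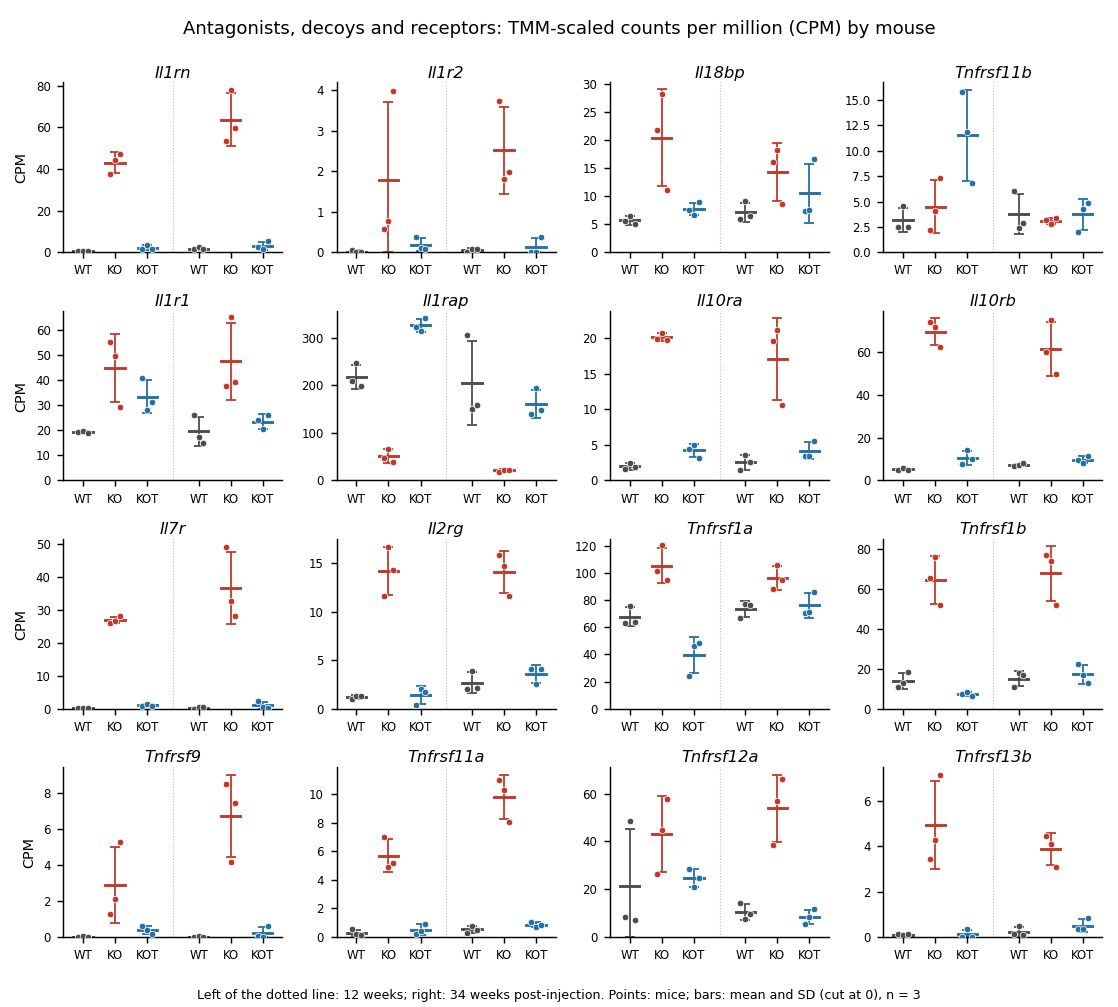
TMM-scaled CPM (y axis, from 0) of 4 antagonists or decoys and 12 receptors in each mouse by group, with 12 weeks left and 34 weeks right of the dotted line, and bars for the mean and SD of 3 mice. Il1rap is the only gene whose Lipa-/- (KO) mice all lie below the WT mice, and in treated (KOT) livers at 34 weeks no gene was called against WT livers.

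Whole liver holds many cell types, and fewer cells of a type cannot be told apart from less RNA per cell. Summed marker levels were higher in Lipa-/- than in WT mice for some cell types, lower for hepatocytes and overlapping for others. Of all genes, 20.2% were called higher and 9.07% lower at 12 weeks, and 20.5% and 15.7% at 34 weeks. Lists below with 1 of 5 or 1 of 6 called higher are near these shares. Of macrophage and monocyte markers, 6 of 6 were called higher in Lipa-/- livers at both times, with sums of 25.5 to 86.9 CPM in WT and 382 to 622 CPM in Lipa-/- mice. Markers of lipid-associated macrophages were also called in 6 of 6 cases, with sums of 67.2 to 120 and 2935 to 6392 CPM. The 3 pan-leukocyte markers summed to 14.96 to 48.1 and 258 to 428 CPM and were all called. Neutrophil markers, of which Ly6g and Camp were at 0 in every WT mouse, summed to 0.68 to 5.54 and 100.3 to 1304 CPM, with 6 of 6 called at 12 weeks and 4 at 34 weeks. T cell markers were called higher in 5 of 7 cases at both times, with sums of 2.69 to 7.32 and 9.54 to 19.4 CPM, and B cell markers in 1 of 5 at 12 weeks and none at 34 weeks, where 1 was lower, with sums of 1.62 to 9.3 and 1.69 to 8.2 CPM. Cholangiocyte markers were called in 3 and 5 of 5, with sums of 29.4 to 58.6 and 453 to 2232 CPM. Spp1 is on their list and on that of lipid-associated macrophages, so the sums of these lists share a gene. Stellate cell and myofibroblast markers were called higher in 3 and 4 of 6 cases and lower in 1 and 2. Their sums were 32.2 to 70.8 and 169 to 921 CPM. Hepatocyte markers were called lower in 4 and 5 of 6, with sums of 60238 to 86386 CPM in WT and 22139 to 58109 CPM in Lipa-/- mice. The part of these cell types in the changes of Il7r, Tnf, Il1rn, Il1rap and the other members was not tested. NK cell markers were called higher in 3 and 2 of 4 tested, plasma cell markers in 2 and 1 of 3 tested and dendritic cell markers in 2 and 1 of 5, and the 1 tested of 5 markers of mast cells and basophils was called at neither time. Kupffer cell markers had 3 higher and 1 lower of 6 at 12 weeks and 1 and 2 at 34 weeks, and sinusoidal endothelial markers 1 higher and 2 lower of 5 and then 2 and 2, with sums that overlapped between WT and Lipa-/- mice (111 to 375 and 156 to 781 CPM, and 112 to 161 and 99.0 to 164 CPM).

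The other genes of these pathways were read from lists. Of 35 genes of NF-kappaB and TNF receptor signalling, 13 were called higher and 1 lower in Lipa-/- livers at 12 weeks, and 12 and 2 at 34 weeks. The largest rises were in Relb and Nfkb2, which form the non-canonical NF-kappaB dimer (3.605 ± 0.36 and 2.85 ± 0.33 at 12 weeks), and in the adaptor Traf1 (3.45 ± 0.57), while the kinase gene Chuk was lower (-1.20 ± 0.23 and -1.64 ± 0.24). The list's median was 0.40 and 0.50, beside 0.02 and -0.03 over all genes. Of 13 genes of IL-1 and IL-18 signalling and processing, 7 and 6 were called higher, with medians of 1.46 and 1.22. Irak3, which restrains IL-1 receptor signalling, rose by 5.34 ± 0.41 and 3.85 ± 0.36, and the inflammatory caspase gene Casp4 by 5.06 ± 0.66 and 3.88 ± 0.61. Pycard, which encodes the inflammasome adaptor ASC, rose by 4.50 ± 0.67 and 3.05 ± 0.62. Of 22 genes of JAK-STAT signalling, 5 and 4 were called higher and none lower, led at 12 weeks by the feedback inhibitor Socs3 (2.91 ± 0.68 and 2.30 ± 0.66) and Stat4 (2.65 ± 0.68 and 1.92 ± 0.62). The shares called in this list, at 5 and 4 of 22, are near the 20.2% and 20.5% of all genes. Of 6 ectodomain sheddases, which release membrane-bound ligands and receptors, 4 and 5 were called higher, with Adam8 at 8.69 ± 0.62 and 7.75 ± 0.55 and Adam17, the TNF convertase, at 1.23 ± 0.20 and 1.16 ± 0.20.

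Of 22 targets of IL-6 and STAT3 in hepatocytes, a list that includes Il1rn, 14 were called higher at 12 weeks, and 10 higher and 1 lower at 34 weeks. Lcn2 rose by 9.51 ± 1.35 and 6.23 ± 1.16, Saa2, which has the close paralog Saa1, by 6.501 ± 1.53 and 3.47 ± 1.32 and Orm2 by 6.45 ± 1.18 and 4.32 ± 1.06, while Crp was the gene called lower at 34 weeks (-1.39 ± 0.25). Of 31 ligands and receptors of the same or related families under other symbols, 25 were tested, of which 16 were called higher and 3 lower at 12 weeks and 15 and 3 at 34 weeks. Csf2rb2, a beta chain for IL-3, rose by 5.39 ± 0.54 and 4.84 ± 0.50, and Ltb, which encodes lymphotoxin beta, by 4.68 ± 0.58 and 4.12 ± 0.54. Osm, which encodes oncostatin M, held 2 and 1 reads in the WT groups and was at 1.71 to 1.99 CPM and 1.8 to 3.56 CPM in Lipa-/- mice. Its receptor chain Osmr rose by 3.15 ± 0.35 and 3.98 ± 0.36, whereas Lifr, the chain for leukaemia inhibitory factor, fell (-2.95 ± 0.25 and -1.99 ± 0.24).

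In treated livers at 12 weeks, 14 members were called higher and 4 lower than in WT livers. Of all genes, 13.6% were called higher and 12% lower, and the medians of log2 fold change were 0.60 and 0.06. Among the 52 members that pass the read minimum in WT mice alone, 11 were called higher and 4 lower. The share of all such genes was not computed for this comparison. Scaled by total counts, which moves the median of all genes by -0.40, the 64 members stood at 7 higher and 8 lower. With that scaling 6.78% of all genes were called higher and 21.1% lower. The count of 18 fell to 8 without WT mouse 3, to 10 without treated mouse 10 and to 11 without treated mouse 11. The members called higher also in Lipa-/- livers, against the same WT mice, were Il10ra, Il10rb, Il15, Il16, Il1rn, Il20rb, Il7r, Tnf, Tnfrsf9 and Tnfsf13. Tnf was at 0.583, 1.09 and 0.383 CPM in treated mice, all above the WT mice and below the Lipa-/- mice, a log2 fold change of 2.16 ± 0.52 against WT (edgeR, adjusted p = 0.0078). Il1rn was at 1.36, 3.48 and 1.76 CPM (1.76 ± 0.43, adjusted p = 0.0085 in edgeR), and Tnfsf13 at 8.55, 5.16 and 4.52 CPM (2.70 ± 0.69, adjusted p = 0.0094). The call of Tnfsf13 was lost without WT mouse 3 (adjusted p = 0.0524). Il7r was at 0.874, 1.47 and 0.767 CPM (2.34 ± 0.83), and its call was lost on leaving out any of WT mice 1, 2 and 3 or treated mice 10 and 11 (adjusted p from 0.0675 to 0.131). The calls of Il10ra (1.08 ± 0.34) and Il10rb (1.04 ± 0.22) were close to the threshold of fold change. They were lost without WT mouse 1 or treated mouse 11, and that of Il10ra also without WT mouse 3 or treated mouse 10, at log2 fold changes of 0.92 to 1.06 for Il10ra and 0.77 to 1.00 for Il10rb. Tnfrsf9 held 15 reads in treated and 1 in WT mice (ratio 21.1, counting interval 3.24 to 888), and its call was lost without WT mice 1 or 3 or treated mice 10 or 11 (adjusted p from 0.0771 to 0.126).

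The other 4 members called higher in treated livers at 12 weeks were not called in Lipa-/- livers. Il15ra was at 15.8, 12.4 and 13.1 CPM in WT and 51.6, 21.2 and 31.8 CPM in treated mice, all above WT, a log2 fold change of 1.34 ± 0.31 (edgeR, adjusted p = 0.0064). Without treated mouse 10, the highest, it was 0.87 with adjusted p = 0.0549. Its ligand Il15 was at 0.429, 1.05 and 0.471 CPM in WT and 3.5, 2.66 and 2.07 CPM in treated mice (2.05 ± 0.48, adjusted p = 0.0068 in edgeR). Tnfrsf11b was at 2.46, 4.54 and 2.51 CPM in WT and 15.8, 11.9 and 6.82 CPM in treated mice (1.85 ± 0.48), and the call was lost without WT mouse 3 or treated mouse 10 (adjusted p from 0.0526 to 0.0576). Tnfrsf13c was at 0, 0.0957 and 0.105 CPM in WT and 0.388, 0.978 and 0.23 CPM in treated mice, near the floor of detection, and its log2 fold change of 2.93 ± 0.90 was not called without WT mice 1 or 3 or treated mouse 11 (adjusted p from 0.0557 to 0.126). Il13ra1, a chain for IL-13 and IL-4, was at 30.7 to 33.4 CPM in WT and 46.8 to 96 CPM in treated mice (1.15 ± 0.35). Whether the call of Il13ra1 holds on leaving out 1 mouse was not examined.

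The members called lower in treated livers at 12 weeks were 4 cytokine receptor chains, Il6ra, Il17ra, Il17rc and Il22ra1. Il6ra was at 2.23, 2.77 and 2.76 CPM, below all WT mice, with a log2 fold change of -1.90 ± 0.60 (edgeR, adjusted p = 0.022), and was the only member called in opposite directions in Lipa-/- and treated livers of that time. Its call was lost without WT mouse 3 or treated mice 10 or 11 (adjusted p from 0.0507 to 0.174). Il17ra was at 2.04, 6.08 and 6.59 CPM and its partner chain Il17rc at 3.69, 12.0 and 13.6 CPM against 22.7 to 24.0 CPM in WT, log2 fold changes of -1.279 ± 0.33 and -1.24 ± 0.33. Il22ra1, through which IL-22 acts on hepatocytes, was at 0.0971, 0 and 0.537 CPM against 0.574 to 1.31 CPM (-2.36 ± 0.81), and the call was lost without WT mice 1 or 3 or treated mice 10 or 11 (adjusted p from 0.0773 to 0.102). Tnfrsf1a and Tnfrsf1b stood at -0.77 ± 0.22 and -0.94 ± 0.27, both with adjusted p = 0.016 in edgeR and both under the threshold of fold change. The lists of NF-kappaB and JAK-STAT signalling had 4 higher and 7 lower of 35 and 0 higher and 4 lower of 22. Of the IL-1 and IL-18 list 5 of 13 were called higher, of sheddases 1 of 6, of STAT3 targets 6 of 22 with 1 lower, and of the family genes under other symbols 6 of 25 with 1 lower. Beside these lists, 13.6% of all genes were called higher and 12% lower. The 4 of 35 and the 1 of 6 called higher are near the former share.

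Marker lists were also read in treated livers at 12 weeks, where 13.6% of all genes were called higher and 12% lower than in WT livers. The pan-leukocyte markers were called higher in 2 of 3 cases (43.9 to 80.7 against 14.96 to 19.5 CPM) and neutrophil markers in 1 of 6 (5.9 to 64.5 against 0.68 to 2.152 CPM). T cell markers were called higher in 5 of 7 cases, with sums of 10.2 to 15.2 CPM, NK cell markers in 2 of 4 tested (3.22 to 6.6 CPM, against 0.105 to 0.803 CPM in WT, where Eomes was at 0), B cell markers in 2 of 5 (5.54 to 12.9 against 1.62 to 3.7 CPM) and plasma cell markers in 2 of 3 tested (14.0 to 34.1 against 2.04 to 4.97 CPM). Macrophage and monocyte markers were called in 3 of 6 cases (52.4 to 95.0 CPM), lipid-associated macrophage markers in 5 of 6 (240 to 461 CPM) and Kupffer cell markers in 2 of 6 (474 to 616 against 111 to 268 CPM). Hepatocyte markers had 1 of 6 lower, and dendritic cell markers 2 of 5 higher. Stellate cell and myofibroblast markers had 1 of 6 higher, and sinusoidal endothelial markers 1 higher and 1 lower of 5. Cholangiocyte markers had none called of 5, nor was the 1 tested marker of mast cells and basophils. Lists with 1 call in a direction are near the shares of all genes. The part of these cells in the changes of Il15, Il15ra, Tnfrsf13c and the others was not tested.

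**Figure D4:**
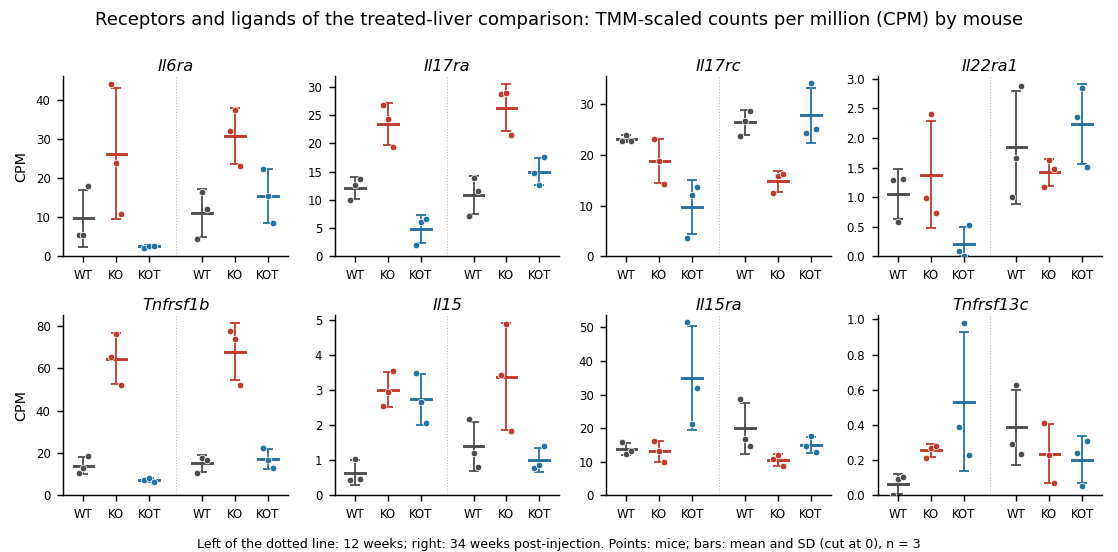
TMM-scaled CPM (y axis, from 0) of 8 genes in each mouse by group, with 12 weeks left and 34 weeks right of the dotted line, and bars for the mean and SD of 3 mice. At 12 weeks the treated (KOT) mice lie below all WT mice for Il6ra, Il17ra, Il17rc, Il22ra1 and Tnfrsf1b (the last not called) and above them for Il15, Il15ra and Tnfrsf13c, and at 34 weeks they overlap the WT mice for each.

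At 34 weeks no member was called in treated against WT livers. edgeR called 0 of 64 in either direction, 5 members had an unadjusted p under 0.05 and DESeq2 called 0, beside 0.131% of all genes called higher and 0.0894% lower. The medians of log2 fold change were 0.26 over the members and 0.00 over all genes. Those 5 were Il18rap, Il1rl2, Il21r, Il7r and Tnfrsf9, with log2 fold changes of 1.33 to 3.58 and adjusted p from 0.691 to 0.847. Tnf was at 0.447, 0.218 and 0.622 CPM in treated and 0.177, 0.512 and 0.272 CPM in WT mice, and Il1rap at 139, 195 and 148 against 306, 150 and 158 CPM, and both overlapped. Of the genes in the 6 pathway lists none was called. Of the cell type markers, those of lipid-associated macrophages were called higher in 3 of 6 cases (sums of 154 to 230 CPM in treated and 81.6 to 120 CPM in WT mice) and those of T cells in 1 of 7 (9.72 to 13.8 and 2.69 to 6.03 CPM), and none of any other list was called. Neutrophil markers summed to 1.64 to 596 CPM in treated and 0.895 to 5.54 CPM in WT mice. The part of these cells in the members' values was not tested. With 3 mice in each group, Tnfrsf9 held 17 reads in treated and 1 in WT mice and was not called. Treated mice 9, 11 and 12 held 1, 0 and 16 reads, so nearly all came from mouse 12. The ratio of the pooled reads was 16.9, with a counting interval of 2.64 to 704 that leaves out this spread between mice.

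Against untreated Lipa-/- livers, treated livers had 37 members called lower and 3 higher at 12 weeks, beside 25.3% and 16.2% of all genes, and 32 lower and 1 higher at 34 weeks, beside 18.6% and 12.9%. The medians were -1.41 and -1.26, and -0.19 and 0.03 over all genes. These counts include the 12 members too rare in WT livers to pass the read minimum there. Such members can pass through high Lipa-/- reads, and the comparison with untreated Lipa-/- livers was not repeated without them. Called lower at both times were 25 members. Il7r differed by -4.65 ± 0.65 and -5.14 ± 0.64, Tnf by -3.10 ± 0.42 and -3.36 ± 0.42, Il1rn by -4.24 ± 0.40 and -4.35 ± 0.39 and Tnfrsf1b by -3.14 ± 0.29 and -1.97 ± 0.27. Il1rap was higher in treated livers at both times (2.69 ± 0.28 and 2.93 ± 0.29, edgeR adjusted p = 3.8e-06 and 1.4e-06), and Tnfrsf11b and Il15ra were higher at 12 weeks (1.35 ± 0.47 and 1.41 ± 0.31). Without treated mouse 10 the log2 fold change of Il15ra was 0.98. The call of Tnfrsf11b was lost without Lipa-/- mice 5 or 8 or treated mouse 10, at log2 fold changes of 1.018 to 1.281. The calls at 12 weeks of Tnfsf13b (-1.33 without Lipa-/- mouse 9), Il1a, Il33, Il1r2, Il18r1, Il4ra and Tnfsf13 were also lost on leaving out 1 or another mouse, with the highest adjusted p at 0.137 for Il33.

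Between the time points, WT livers had no member called (edgeR 0 of 64, 12 with an unadjusted p under 0.05, 1 by DESeq2), beside 0.323% of all genes. In treated livers 9 members were called higher and 7 lower at 34 weeks than at 12 weeks, beside 32% of all genes in either direction. Higher at 34 weeks were Il22ra1 (3.44 ± 0.79), Tnfrsf22 (2.79 ± 0.70), Il18r1 (2.64 ± 0.95), Il6ra (2.57 ± 0.60), Il17ra, Il17rc, Il2rg, Tnfrsf1b and Tnfrsf21, and lower were Tnfsf13 (-1.84 ± 0.65), Tnfrsf11b (-1.62 ± 0.47), Tnfrsf12a, Il15, Il15ra, Il1rap and Il13ra1. Scaled by total counts, which moves the median of all genes by 0.64, the split was 21 higher and 0 lower. Of all genes, 34.4% were then called higher and 4.76% lower. Both counts of members thus rest on the scaling, and the 21 higher are near the share of all genes. The count of 16 fell to 6 without treated mouse 10 at 12 weeks and to 7 without treated mouse 9 at 34 weeks. Tested as an interaction of treatment and time, 6 members differed from WT mice unequally at 12 and 34 weeks, 3 in each direction, beside 18.4% of all genes. The difference rose for Il6ra, Il17ra and Tnfrsf1b, from log2 fold changes of -1.90, -1.279 and -0.94 to 0.48, 0.46 and 0.19, and fell for Tnfrsf13c, Il15 and Il15ra, from 2.93, 2.05 and 1.34 to -0.87, -0.44 and -0.41. No member was called in this test without WT mouse 1 or 3 at 12 weeks, WT mouse 1 at 34 weeks or treated mouse 9 at 34 weeks. It called 1 without treated mouse 10 at 12 weeks, 2 without treated mouse 11 at 34 weeks and 10 without treated mouse 12 at 34 weeks.

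Of the 115 symbols, 51 did not pass the read minimum. Of these, 14 were at 0 in all 18 mice and 37 had some reads. Il6, the ligand of the IL-6 receptor, held 45 reads in all, 27 of them in Lipa-/- mice at 34 weeks, and Il10 held 65 reads, 30 of them in Lipa-/- mice at 12 weeks. Il1rl1, the IL-33 receptor, held 33 reads and Tnfsf11, which encodes RANKL, 34 reads, of which 27 were in Lipa-/- mice at 34 weeks. In WT mice Tnfsf11 held 0 reads at either time. Tnfrsf8, which encodes CD30, and its ligand gene Tnfsf8, both chosen after their values were seen, held 46 and 36 reads in Lipa-/- mice and 1 read each in WT mice at 12 weeks. The read minimum kept these genes out of the test.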

How the data were processed

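PolyA RNA of 18 whole mouse livers was sequenced paired-end. The authors quantified reads with Salmon against the mouse transcriptome with the human LIPA sequence, summed transcripts to genes, and deposited estimated counts, TPM and effective lengths for 35441 genes. A deposited table of the authors' own DESeq2 comparisons (fold changes and p-values) was not used. The submitters' notes name R 4.3.0 and DESeq2 1.40.1. Of the estimated counts, 19.4% were not whole, and all were rounded. Genes with more than 100 reads over the 18 mice were kept (14535), scaled by TMM, and tested with edgeR 4.0.16 in R 4.3.3 (quasi-likelihood, 6 group means in one fit, Benjamini-Hochberg adjustment over all genes). The SE is the absolute log2 fold change divided by the square root of F. DESeq2 1.42.0 and limma 3.58.1 on log2 TPM were alternatives, beside other scalings, filters and thresholds and leaving out each mouse. The test was checked on simulated counts. Apart from the limma alternative and the choice of the 5 members with the highest mean, TPM were used only to compare genes within a group.

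The members and all gene lists were chosen with earlier results of these data known. Named genes were the well-known ligands, receptors and antagonists on a fixed list and the members with the largest changes, and 17 others (Il16, Il36g, Il7, Tnfsf9, Il12rb1, Il13ra1, Il17rb, Il17rc, Il17rd, Il17re, Il18rap, Il20rb, Il2rb, Il3ra, Tnfrsf18, Tnfrsf4 and Il4i1) were named after their values were seen. Positions are from GRCm39 with GENCODE annotation, where 4 members share exons with another gene on the same strand and 31 on the other strand only. Samples are separate mice, grouped by the labels.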

Additional observations from a re-analysis of the deposited data

Results flagged for a closer look

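In treated livers, the difference from WT mice changed between 12 and 34 weeks for 6 members by a test of the difference itself (edgeR, an interaction of group and time, adjusted over all genes). It rose by 2.38 ± 0.81 on the log2 scale for Il6ra (SE, adjusted p = 0.0481), by 1.74 ± 0.46 for Il17ra (adjusted p = 0.0260) and by 1.13 ± 0.38 for Tnfrsf1b (adjusted p = 0.0476). It changed by -3.80 ± 1.18 for Tnfrsf13c (adjusted p = 0.0372), by -2.49 ± 0.66 for Il15 (adjusted p = 0.0260) and by -1.74 ± 0.43 for Il15ra (adjusted p = 0.0246). In the same test 18.4% of all genes were called, and time point and sample-name prefix cannot be told apart. The mice at the later time point are different animals.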

How the results depend on the processing

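The counts of members called in Lipa-/- against WT livers and in treated against Lipa-/- livers stayed within 1.5 times their values under every alternative run. Leaving out 1 mouse gave 35 to 39 (41 with all mice) and 35 to 41 (38) for the former at 12 and 34 weeks, and 34 to 38 (40) and 31 to 34 (33) for the latter. For treated against WT livers at 12 weeks, 18 became 8 at adjusted p under 0.01 and 9 with limma on TPM, and 8 to 20 without 1 mouse. At 34 weeks the count stayed at 0. The change of that difference with time, 6 members, became 10 with DESeq2, 0 when only the compared groups were fitted, 0 at adjusted p under 0.01, and 0 to 10 without 1 mouse, and the same test for Lipa-/- livers stayed at 0. Between time points, WT livers went from 0 to 1 with DESeq2 and 0 to 1 without 1 mouse. Lipa-/- livers went from 1 to 0 with RLE, total-count or upper-quartile scaling, with only the compared groups and at adjusted p under 0.01, and 0 to 1 without 1 mouse. Treated livers went from 16 to 8 at adjusted p under 0.01 and 6 to 18 without 1 mouse. With the replicate block the count in treated livers was 4. Mouse numbers do not pair the samples, since they name different animals, and deviations of same-numbered mice correlated at -0.262 to 0.468. Il11ra1 in Lipa-/- livers at 34 weeks reversed from -0.31 to 1.01 with limma on TPM. Among single members, 139 values lost and 112 gained their call, and 4542 kept their side. Total-count scaling moved the median of all genes by 0.47 and 0.63 in Lipa-/- against WT livers. The members then stood at 48 higher and 1 lower and 45 higher and 1 lower. Of all genes, 27.9% and 32.6% were then called higher and 4.11% and 7.24% lower. The cause of these changes was not tested. Genes with 1 to 3 reads in a group are limited by depth.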
